A study of Homo sapiens with 9 samples.

Results

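The levels of 10 genes of the prostaglandin E2 pathway were followed across the series: the group IV phospholipases PLA2G4A, PLA2G4B and PLA2G4C, the cyclooxygenases PTGS1 and PTGS2, the prostaglandin E synthases PTGES, PTGES2 and PTGES3, and the receptors PTGER2 and PTGER4. The table counts 58735 genes in all. The members were listed by name for their function, with earlier results of these data known. PLA2G4C is an exception, which entered the list because its own values were higher with p65 2CS than with p65 WT. Its levels are therefore described here without a test. Of the 10 genes, 9 had enough reads for the fit across all genes, and PLA2G4B did not.

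Prostaglandin E2 is made in 3 steps. A phospholipase A2 frees arachidonic acid from membrane lipids, a cyclooxygenase converts it to prostaglandin H2, and a prostaglandin E synthase isomerises that to prostaglandin E2, which then acts on G protein-coupled receptors of the cell surface. The inducible enzymes of this chain are known as targets of inflammatory signals such as TNF in fibroblasts, macrophages and epithelia.

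All cells were HEK293A, derived from the human embryonic kidney line HEK293 and selected for flat growth, with the gene for p65 (RELA), a subunit of the transcription factor NF-kB, knocked out. Plasmids carrying p65 WT, p65 2CS or no insert (vector) were transfected. The labels do not explain the name 2CS, and the title of the series speaks of p65 palmitoylation. After 24 h all 3 groups received TNF at 20 ng/mL for 2 h. Each group has 3 libraries, replicates 1 to 3 being vector, 4 to 6 p65 WT and 7 to 9 p65 2CS. Every group had TNF, so nothing here measures a response to TNF. The labels do not say whether the libraries came from separate cultures or how many knockout clones were used, so p-values may measure only technical spread. The comparisons ask what p65 WT or p65 2CS adds to the vector and how the forms differ.

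Levels are given as CPM, a gene's count scaled to a common library total. RELA itself had 65.9 to 69.0 CPM in the vector libraries, 8037 to 9922 where p65 WT was transfected and 24036 to 26771 where p65 2CS was. The p65 forms therefore were not present at equal transcript levels, RELA being 2.83-fold higher with p65 2CS (edgeR adjusted p = 1.4e-30). Total counts per library ranged from 15989601 to 25068515. Of 13 markers of HEK293 cells 10 reached 1 CPM with vector, led by KRT8 and NEFL, and the sum over the 13 was 2543 to 2571 CPM in vector libraries, 2455 to 2524 under p65 WT, then 2221 to 2290 under p65 2CS, without overlap. Within that list SIX2 had means of 9.56, 39.7 and 13.6 CPM and PAX8 of 0.139, 4.28 and 0.657 CPM in the same order. The leukocyte genes MS4A1 and TYROBP had no read in any library and PTPRC had 1, and the summed level of 11 leukocyte markers was 4.55 to 5.02 CPM in vector libraries, 5.64 to 6.92 under p65 WT, then 6.24 to 6.64 under p65 2CS. The summed level of 5 endothelial markers was 8.38 to 8.71 CPM in vector libraries, 34.6 to 40.7 under p65 WT, then 11.3 to 13.6 under p65 2CS, almost all of it VWF and CDH5, while PECAM1 had 11 reads in all. Of the 4 platelet markers PF4 and PPBP had no read, and the sum, carried by ITGA2B, was 19.1 to 20.7 CPM in vector libraries, 25.8 to 33.1 under p65 WT, then 15.5 to 21.4 under p65 2CS. The sum over 7 fibroblast markers was 72.9 to 80.0, 84.1 to 88.1 and 68.7 to 72.7 CPM in that order. The endothelial, platelet and fibroblast sums were thus highest with p65 WT without overlap, as PTGES and PTGER4 are below, and the part of these markers in the results was not tested.

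Promoter sequence was at hand for 9 of the 10 genes, PLA2G4C being the exception. The windows of PTGES and PTGS2 are shown because these are the inducible enzymes of the pathway, and the short stretch of PTGER4 because it holds the only match to the 10-base NF-kB consensus among the windows of the 9 genes. Each is from RefSeq on GRCh38.p14, written 5′ to 3′ on the strand of its gene. Capitals mark the letters GCGTGGGCG in PTGES, TATAAA in PTGS2 and the NF-kB consensus match in PTGER4.
PTGES (chr9:129753053-129753292, minus strand, 250 to 11 bases before the start): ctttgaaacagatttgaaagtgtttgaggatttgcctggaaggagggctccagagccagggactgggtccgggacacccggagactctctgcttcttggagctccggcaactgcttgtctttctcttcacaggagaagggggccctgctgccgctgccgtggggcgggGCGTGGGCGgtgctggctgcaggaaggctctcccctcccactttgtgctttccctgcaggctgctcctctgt
PTGS2 (chr1:186680434-186680673, minus strand, 250 to 11 bases before the start): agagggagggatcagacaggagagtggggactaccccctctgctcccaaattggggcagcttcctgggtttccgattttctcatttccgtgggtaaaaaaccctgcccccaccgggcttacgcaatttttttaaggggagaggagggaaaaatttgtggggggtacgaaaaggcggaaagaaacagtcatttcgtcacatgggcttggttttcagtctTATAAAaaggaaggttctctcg
PTGER4 (chr5:40679665-40679694, plus strand, 250 to 221 bases before the start): agcaccGGGGCTTCCCagggtcccctccga

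Both strands of the 250 bases before each start were searched. The NF-kB consensus was GGGRNWYYCC, where R is A or G, N any base, W A or T and Y C or T. Only full matches counted, so gggactaccc in the PTGS2 window, which departs from it in 1 letter, did not. The NF-kB consensus was found in 5.21% of 35116 promoter windows of that length, the EGR element GCGNGGGCG in 8.41% and the letters TATAAA in 10.7%. Besides PTGES, 1 of the 3 windows of PTGES2 and the window of PTGER2 held GCGNGGGCG, and 1 of the 2 windows of PTGS1 held TATAAA on its minus strand. The PTGER4 match lies 244 to 235 bases before the RefSeq start, inside the first exon of a GENCODE transcript that begins at 40679498 and upstream of another that begins at 40679930. A match is a description of letters, and no binding was measured.

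Of the 8 members with a test, the terminal synthase PTGES and the receptor PTGER4 rose. With p65 WT, PTGES was 24.2-fold and PTGER4 2.52-fold above vector. With p65 2CS, PTGES was 6.99-fold above vector, while PTGER4 did not pass the test. PTGES3 was lower with p65 2CS by 0.09 on the log2 scale. Among those 8 members 2 were higher and 0 lower in p65 WT against vector, where 28.8% of all 18195 genes tested were called, 16.4% higher and 12.5% lower. That split of all genes was 2976 higher and 2268 lower, and 2561 and 3642 when only the library totals set the scale. In p65 2CS against vector 1 member was higher and 1 lower, where 23.4% of all genes were called, 12.1% higher and 11.4% lower. In p65 2CS against p65 WT 0 were higher and 3 lower, where 31.2% of all genes were called, 13.4% higher and 17.9% lower. With 8 genes, such counts are not read as a property of the pathway, and the values of single genes follow. Over the 9 members fitted, PLA2G4C included, the median log2 fold was 0.40, 0.29 and -0.06 in the 3 comparisons, against -0.02, -0.0018 and 0.0030 over all genes. PLA2G4C was chosen by its own values and lies above the median in each comparison, so these medians are not read as a shift of the set.

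**Figure D1:**
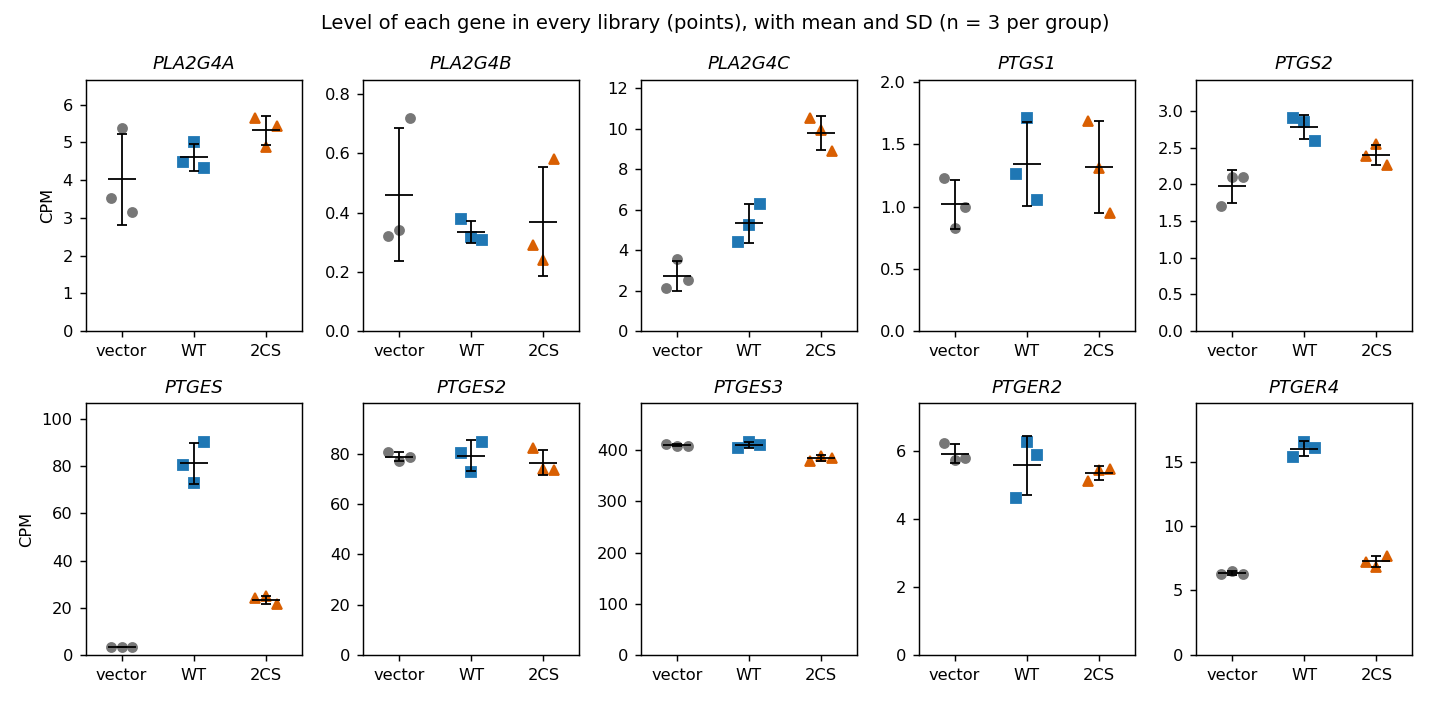
Level of each of the 10 genes in every library, in CPM on linear axes that start at 0, for vector (grey circles), p65 WT (blue squares) and p65 2CS (orange triangles), with mean and SD over 3 libraries as black bars. PTGES and PTGER4 are highest with p65 WT, PLA2G4C with p65 2CS, and PTGES2 and PTGES3 stay within a narrow band.

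PTGES, the inducible microsomal prostaglandin E synthase that works with PTGS2, gave the widest difference of the set. Its gene (ENSG00000148344) covers 129738331 to 129753047 on the minus strand of chromosome 9 (GRCh38, as for all genes here), and no other counted gene overlaps it. It stood at 3.42, 3.28 and 3.37 CPM with vector, at 80.4, 73.0 and 90.4 CPM with p65 WT, and at 24.0, 24.8 and 21.4 CPM with p65 2CS. The 3 groups did not overlap, and the SD over the vector libraries was 0.07 CPM. Libraries that all lay higher with p65 WT than with vector were found for 20.3% of the tested genes, and libraries that all lay lower with p65 2CS than with p65 WT for 21.8%. For p65 2CS above vector the share was 18.5%. In bulk RNA, a higher level per cell and a larger share of cells expressing the gene cannot be told apart.

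PTGES had a log2 fold of 4.60 ± 0.09 for p65 WT against vector (edgeR adjusted p = 8.41e-34) and 2.81 ± 0.11 for p65 2CS against vector (edgeR adjusted p = 3.91e-23), with ± the standard error. Between the forms, PTGES was 3.46-fold lower with p65 2CS, a log2 fold of -1.79 ± 0.07 with a 95% interval of -1.93 to -1.65 (edgeR adjusted p = 4.42e-24). The gain over vector with p65 2CS was 20.1 CPM, or 25.8% of the 77.9 CPM gained with p65 WT. By fold over vector PTGES ranked 293rd of 18195 genes with p65 WT and 137th with p65 2CS.

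The constitutive synthases behaved differently from PTGES. PTGES2 (chromosome 9, 128120693 to 128128462, minus strand), a second membrane-bound synthase, stood at 77.1 to 80.6 CPM in vector libraries, 72.7 to 84.7 under p65 WT, then 73.5 to 82.1 under p65 2CS, and the groups overlapped in every comparison. Its 95% intervals on the log2 scale were -0.09 to 0.11 for p65 WT against vector, -0.14 to 0.05 for p65 2CS against vector and -0.15 to 0.05 between the forms. None of the 3 passed the test (edgeR adjusted p = 0.93, 0.546 and 0.441).

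PTGES3 (chromosome 12, 56663341 to 56688408, minus strand), a cytosolic synthase better known as p23, a co-chaperone of HSP90, was the most abundant member. It stood at 412, 408 and 409 CPM with vector, 405, 417 and 411 CPM with p65 WT, and 379, 390 and 386 CPM with p65 2CS. The p65 2CS libraries lay below all 6 others, while vector and p65 WT overlapped. Libraries that all lay lower with p65 2CS were found for 18.1% of tested genes against vector and 21.8% against p65 WT. The fall was small: 0.09 ± 0.03 on the log2 scale against vector (edgeR adjusted p = 0.00766) and 0.09 ± 0.03 against p65 WT (edgeR adjusted p = 0.0042), or 1.07-fold in each case. Against vector, p65 WT differed by 0.0033 with an interval of -0.05 to 0.06. PTGES3 has processed copies. Of these, PTGES3P1 had 65 to 93 counts per library and the 4 others at most 13 each, against 6420 to 9801 for PTGES3 itself. How reads that match both PTGES3 and a copy were counted is not given, so their number is uncertain.

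Among the 3 synthases the balance of transcripts therefore moved. On a scale of CPM per kb of gene length, which allows levels of different genes to be compared, PTGES made up 1.19 ± 0.0158% of the summed level of the 3 synthase genes with vector, 22.5 ± 1.73% under p65 WT, then 8.19 ± 0.538% under p65 2CS (SD, n = 3). PTGES was below PTGES2 with vector (1.77 against 25.9 CPM per kb), above it with p65 WT (42.9 against 26.1) and below it with p65 2CS (12.4 against 25.2), without overlap of libraries in any group.

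**Figure D2:**
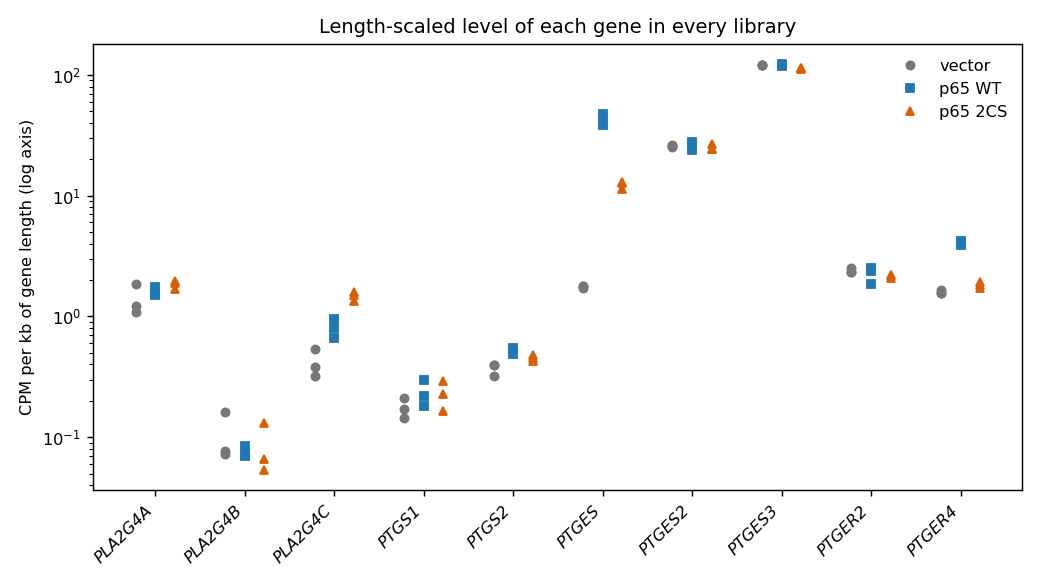
Level of each gene in CPM per kb of gene length, on a log axis, in every library of vector (grey circles), p65 WT (blue squares) and p65 2CS (orange triangles). PTGES passes PTGES2 only with p65 WT, and PTGS1, PTGS2 and PLA2G4B stay below 0.6 CPM per kb throughout.

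The receptors of the list are EP2 (PTGER2) and EP4 (PTGER4), which both couple to Gs proteins and raise cyclic AMP. PTGER4 (ENSG00000171522, chromosome 5, 40679498 to 40693735, plus strand) stood at 6.24, 6.51 and 6.25 CPM with vector, 15.4, 16.5 and 16.1 CPM with p65 WT, and 7.22, 6.84 and 7.69 CPM with p65 2CS. The p65 WT libraries lay far above the rest. Libraries all higher with p65 WT than with vector were found for 20.3% of tested genes, and all lower with p65 2CS than with p65 WT for 21.8%. The p65 2CS libraries lay above those of vector by a narrow margin, as for 18.5% of tested genes. Its log2 fold over vector was 1.34 ± 0.11 with p65 WT (edgeR adjusted p = 5.49e-13) and, between the forms, -1.15 ± 0.11, or 2.21-fold lower with p65 2CS (edgeR adjusted p = 2.93e-11).

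Between p65 2CS and vector PTGER4 differed by 0.19 ± 0.12 on the log2 scale, with a 95% interval of -0.05 to 0.43, and did not pass the test (edgeR adjusted p = 0.279). The gain over vector was 0.915 CPM with p65 2CS, or 9.47% of the 9.67 CPM gained with p65 WT. TTC33, a gene on the opposite strand that overlaps PTGER4, stood at 30.8, 32.6 and 31.3 CPM in the 3 groups and was not called in any comparison (edgeR adjusted p = 0.403, 0.821 and 0.59). Without a known strand setting, reads in the shared part cannot be assigned.

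PTGER2 (chromosome 14, 52314305 to 52328606, plus strand) stood at 5.73 to 6.24 CPM in vector libraries, 4.61 to 6.27 under p65 WT, then 5.12 to 5.48 under p65 2CS. The p65 2CS libraries all lay below those of vector, as for 18.1% of tested genes, and p65 WT overlapped both. PTGER2 was not called in any comparison (edgeR adjusted p = 0.733, 0.539 and 0.812), and its intervals of -0.39 to 0.22, -0.44 to 0.15 and -0.37 to 0.25 on the log2 scale leave room for changes of that size. Of the summed length-scaled level of both receptors, PTGER4 held 40.0 ± 1.54% with vector, 64.3 ± 2.90% under p65 WT, then 45.8 ± 1.63% under p65 2CS (SD, n = 3). PTGER4 was below PTGER2 with vector (1.60 against 2.40 CPM per kb) and with p65 2CS (1.83 against 2.16), and above it with p65 WT (4.04 against 2.26).

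The cyclooxygenases were barely expressed. PTGS2 (chromosome 1, 186671791 to 186680427, minus strand), the inducible form and the target of selective anti-inflammatory drugs, had 32 to 64 reads per library. It stood at 1.71, 2.10 and 2.10 CPM with vector, 2.90, 2.85 and 2.60 CPM with p65 WT, and 2.39, 2.54 and 2.27 CPM with p65 2CS. The 3 groups did not overlap and ran in the order vector, p65 2CS, p65 WT, but no difference passed the test. Such separation was found for 20.3% of tested genes for p65 WT above vector and 18.5% for p65 2CS above vector. For p65 2CS below p65 WT the share was 21.8%.

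For p65 WT against vector the log2 fold of PTGS2 was 0.50 ± 0.22, whose unadjusted interval of 0.04 to 0.95 lies above 0 (edgeR adjusted p = 0.0961). For p65 2CS against vector it was 0.29 ± 0.22 (edgeR adjusted p = 0.393), and between the forms -0.21 ± 0.22 with an interval of -0.65 to 0.23 (edgeR adjusted p = 0.511). PACERR, a noncoding RNA that lies 195 bp from PTGS2 on the opposite strand, had 5 reads in all 9 libraries.

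PTGS1 (chromosome 9, 122370530 to 122395703, plus strand), the constitutive cyclooxygenase, stood at 0.832 to 1.23 CPM in vector libraries, 1.05 to 1.71 under p65 WT, then 0.948 to 1.69 under p65 2CS, from 17 to 33 reads per library. It was not called (edgeR adjusted p = 0.413, 0.469 and 0.954), and with so few reads the interval for p65 WT against vector ran from -0.28 to 1.07 on the log2 scale, which is too wide to detect a small change. PTGS2 held 68.0 ± 6.75% of the summed length-scaled level of both genes with vector, 69.8 ± 4.49% under p65 WT, then 67.1 ± 5.85% under p65 2CS (SD, n = 3), which overlap.

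**Figure D3:**
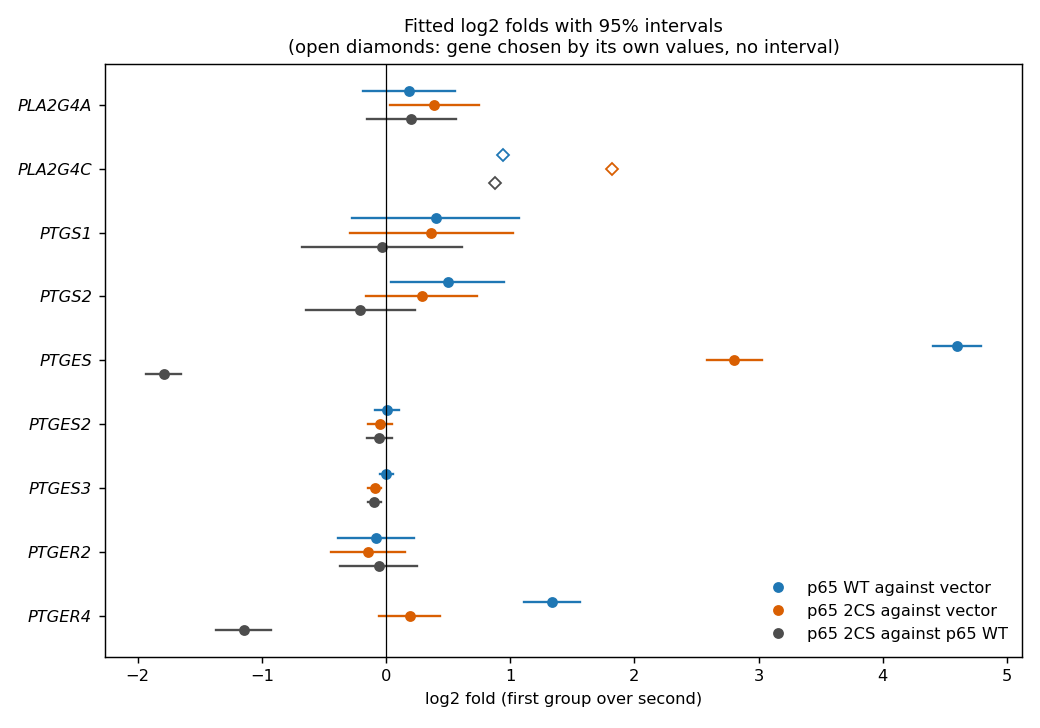
Fitted log2 fold of each gene in p65 WT against vector (blue), p65 2CS against vector (orange) and p65 2CS against p65 WT (dark grey), with unadjusted 95% intervals as lines. Of the 8 genes with a test, PTGES was called in all 3 comparisons and PTGER4 in both that involve p65 WT. PTGES3 was called lower, by a small fold, in both that involve p65 2CS. PLA2G4C is drawn as open diamonds without an interval because it was chosen by its own values.

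The phospholipases differed from each other in length-scaled level, and a difference in pattern among them was not tested. PLA2G4C encodes cytosolic phospholipase A2 gamma, which lacks the calcium-binding C2 domain of its relatives. Its gene (ENSG00000105499) covers 48047843 to 48110817 on the minus strand of chromosome 19. It stood at 2.13, 3.57 and 2.54 CPM with vector, 4.42, 5.26 and 6.31 CPM with p65 WT, and 10.5, 9.94 and 8.91 CPM with p65 2CS. The groups did not overlap, with p65 WT between vector and p65 2CS. Such separation was found for 20.3% of tested genes for p65 WT above vector and 18.5% for p65 2CS above vector. For p65 2CS above p65 WT the share was 18.9%.

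These values chose the gene and carry no test. The fitted log2 folds of PLA2G4C over vector were 0.94 under p65 WT and 1.82 under p65 2CS, with 0.88 between the forms, or 1.92-fold, 3.53-fold and 1.83-fold. PLA2G4C gained 2.58 CPM over vector under p65 WT and 7.04 under p65 2CS, in the opposite order to that of PTGES and PTGER4. With each library left out in turn, the log2 fold of p65 2CS against vector ran from 1.67 to 2.06. The 2.06 was without vector replicate 2, the highest of its group. PLA2G4C-AS1, which overlaps PLA2G4C on the opposite strand, had 8 reads in all libraries together.

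PLA2G4A encodes cytosolic phospholipase A2 alpha, the calcium-activated enzyme that releases arachidonic acid. It lies 148526 bp from PTGS2 on chromosome 1 (186828953 to 186988981, plus strand). It stood at 3.52, 5.38 and 3.15 CPM with vector, 4.48, 5.01 and 4.33 CPM with p65 WT, and 5.64, 4.89 and 5.43 CPM with p65 2CS. Vector replicate 2 lay within the range of the p65 2CS libraries, and the other 2 vector libraries below all the rest.

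For p65 2CS against vector the log2 fold of PLA2G4A was 0.39 ± 0.18 (edgeR adjusted p = 0.11). Without vector replicate 2 it became 0.66 and passed the test (edgeR adjusted p = 0.01), so the call turns on a single control library. With each library left out in turn the log2 fold ran from 0.24 to 0.66. For p65 WT against vector it was 0.19 ± 0.18 (edgeR adjusted p = 0.499). This became 0.46 without vector replicate 2 and 0.04 without vector replicate 3. Between the forms the log2 fold was 0.20 ± 0.18 with an interval of -0.16 to 0.56 (edgeR adjusted p = 0.426).

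PLA2G4B (chromosome 15, 41837775 to 41848147, plus strand), the beta form, had 5 to 13 reads per library, too few for the fit. It stood at 0.320 to 0.719 CPM in vector libraries, 0.309 to 0.379 under p65 WT, then 0.238 to 0.580 under p65 2CS, and all groups overlapped. Its exons are part of the readthrough gene JMJD7-PLA2G4B, which had 60 to 106 reads per library and was not called in any comparison (edgeR adjusted p = 0.572, 0.786 and 0.813), so the reads of PLA2G4B are uncertain. SPTBN5, which overlaps it on the opposite strand, was higher with p65 WT than with vector (2.11 to 4.33 CPM, edgeR adjusted p = 0.00031). Of the summed length-scaled level of the 3 phospholipase genes, PLA2G4C held 21.7 ± 1.74% with vector, 32.4 ± 4.70% under p65 WT, then 43.4 ± 3.10% under p65 2CS (SD, n = 3).

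The order of length-scaled levels was PTGES3, PTGES2, PTGER2, PTGES, PTGER4, PLA2G4A, PLA2G4C, PTGS2, PTGS1 and PLA2G4B with vector, from 120.6 down to 0.104 CPM per kb. Neighbours in this order overlapped between PTGER4 and PLA2G4A, between PLA2G4C and PTGS2 and between PTGS1 and PLA2G4B. With p65 WT the order was PTGES3, PTGES, PTGES2, PTGER4, PTGER2, PLA2G4A, PLA2G4C, PTGS2, PTGS1 and PLA2G4B, with no neighbours overlapping. With p65 2CS it was PTGES3, PTGES2, PTGES, PTGER2, PLA2G4A, PTGER4, PLA2G4C, PTGS2, PTGS1 and PLA2G4B, where among neighbours only PLA2G4A and PTGER4, at 1.85 and 1.83 CPM per kb, overlapped.

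The genes nearest to PTGES in the pair of folds over vector were sought among 13389 protein-coding genes with a mean of at least 1 CPM, by distance on the log2 scale. They were IL32, a cytokine (0.0752 away, 4.67 with p65 WT and 2.82 with p65 2CS), GCNT4, TNFAIP3, a deubiquitinase that restrains NF-kB signalling (0.355 away), BCL2L14 and CFAP161. Nearest to PLA2G4C were FUT3, a fucosyltransferase (0.201 away, 1.12 and 1.91), ADAMTS4, an aggrecan-cleaving protease, PGK1, a glycolytic kinase (0.332 away, 0.64 and 1.69), GADD45B, a stress-response gene (0.373 away, 0.99 and 1.45), and SMIM11A. With vector, GCNT4, BCL2L14 and CFAP161 stood at 0.243, 0.103 and 0.302 CPM. FUT3, ADAMTS4 and SMIM11A stood at 0.570, 0.714 and 0.950 CPM there. Their folds therefore rest on few vector reads, while IL32, TNFAIP3, PGK1 and GADD45B stood higher (3.81, 6.98, 539 and 157 CPM). The folds over vector share the vector libraries, and likeness here is a description over 3 group means.

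**Figure D4:**
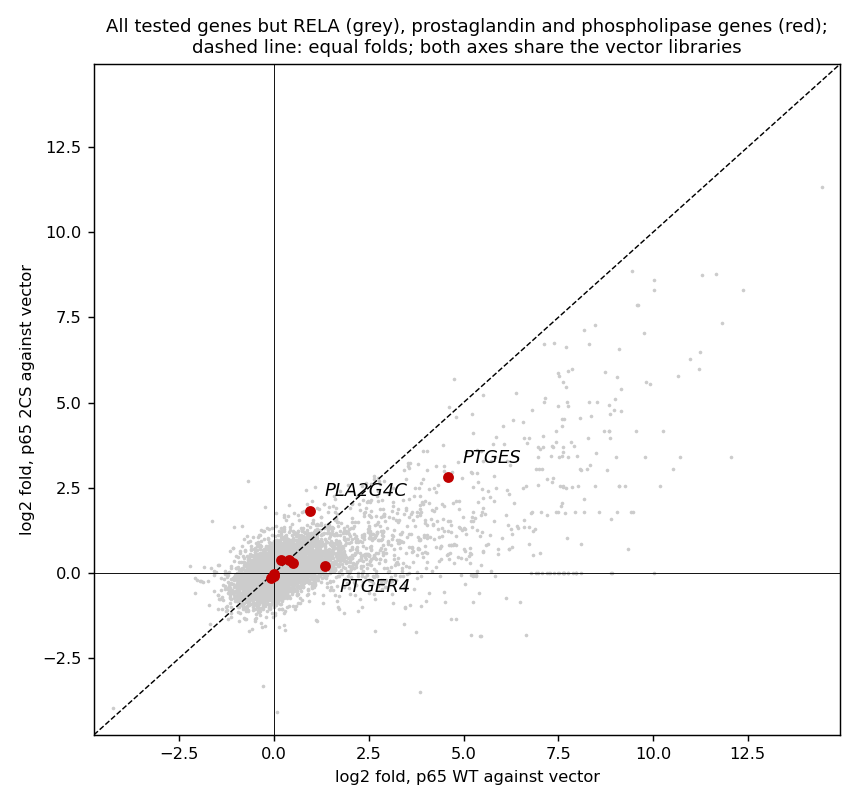
Log2 fold over vector with p65 WT (horizontal axis) and with p65 2CS (vertical axis) for every tested gene but RELA (grey) and for the 9 fitted prostaglandin and phospholipase genes (red), with a dashed line of equal folds. PTGES (4.60, 2.81) and PTGER4 (1.34, 0.19) lie below the line and PLA2G4C (0.94, 1.82) above it.

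The rest of the eicosanoid pathway was read from 8 lists with 108 symbols, of which 105 were in the table and 72 had enough reads. In p65 WT against vector 13 of the 72 were higher and 11 lower, with a median log2 fold of -0.05. These became 14 and 6 without p65 WT replicate 4, and 11 and 12 when only the library totals set the scale. In p65 2CS against vector 1 was higher and 13 lower (median -0.07), the higher count being 0 without vector replicate 3 or p65 2CS replicate 8 and 2 without p65 WT replicate 6. In p65 2CS against p65 WT 3 were higher and 18 lower (median -0.04), or 6 and 16 by library totals and 5 and 16 without p65 2CS replicate 9. Among all genes, 16.4% were called higher and 12.5% lower in the first comparison, 12.1% and 11.4% in the second and 13.4% and 17.9% in the third, and the counts of each list below are read against these shares.

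The list of other prostanoid receptors also holds PTGFRN, named as a regulator of a receptor. Of its 5 genes tested, 2, PTGIR and PTGFRN, were higher and 0 lower with p65 WT against vector (16.4% and 12.5% of all genes). PTGIR, the prostacyclin receptor, stood at 0.694, 0.392 and 0.774 CPM with vector, 2.33, 2.09 and 2.72 under p65 WT, then 0.291, 0.954 and 0.369 under p65 2CS. It was 3.85-fold higher with p65 WT than with vector (edgeR adjusted p = 3.98e-05) and 4.13-fold lower with p65 2CS than with p65 WT (edgeR adjusted p = 1.76e-05), while p65 2CS and vector overlapped.

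PTGFRN, a membrane protein named as a negative regulator of the prostaglandin F2 receptor, rose from 103.8 ± 2.53 to 221.7 ± 4.12 CPM with p65 WT (edgeR adjusted p = 2.24e-27) and stood at 112 ± 2.70 CPM with p65 2CS (SD, n = 3). It was 1.98-fold lower with p65 2CS than with p65 WT (edgeR adjusted p = 9.85e-26). Its small excess with p65 2CS over vector (log2 fold 0.11, edgeR adjusted p = 0.017) lost the call without vector replicate 3 or p65 2CS replicate 8 (edgeR adjusted p = 0.108 and 0.11), which leaves this list without a call there.

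Of 11 lipoxygenase and leukotriene genes tested, 2 were higher and 1 lower with p65 WT against vector (16.4% and 12.5% of all genes). The lower gene, ALOX5, the first enzyme of leukotriene synthesis (log2 fold -0.30, edgeR adjusted p = 0.0331), lost its call with replicate 1 or 3 of vector, or 4 or 6 of p65 WT, left out, without the low-count filter and under DESeq2 (adjusted p up to 0.108). ALOX12B, an epidermal lipoxygenase, rose 5.83-fold from few reads, 0.293 ± 0.115 to 1.76 ± 0.246 CPM (edgeR adjusted p = 3.38e-06), and was 2.64-fold lower with p65 2CS than with p65 WT (edgeR adjusted p = 0.00188). GPX4, the peroxidase that removes lipid hydroperoxides, differed between the forms by -0.24 ± 0.03 on the log2 scale (edgeR adjusted p = 1.03e-07). Among 5 epoxygenase genes tested 1 was higher with p65 WT against vector and 0 lower (16.4% and 12.5% of all genes). This was EPHX1, an epoxide hydrolase, which rose from 66.1 ± 3.36 to 96.0 ± 4.47 CPM with p65 WT (edgeR adjusted p = 6.69e-13) and stood at 69.0 ± 1.90 CPM with p65 2CS, lower than with p65 WT (edgeR adjusted p = 2.55e-11).

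Regulators of cytosolic phospholipase gave 0 higher and 3 lower among 6 with p65 WT against vector, where 12.5% of all genes were lower. The higher count was 1 without p65 WT replicate 4, with RLE size factors or with only the groups compared. ANXA1, annexin A1, known as an inhibitor of phospholipase A2, fell from 124.8 ± 0.0967 CPM with vector to 91.7 ± 0.932 with p65 WT (edgeR adjusted p = 6.22e-13) and 91.6 ± 3.05 with p65 2CS (edgeR adjusted p = 1.16e-12). All 6 p65 libraries lay below the 3 of vector. Libraries that all lay below vector were found for 20.1% of tested genes with p65 WT and 18.1% with p65 2CS. PLAA, a phospholipase A2 activating protein, fell with p65 WT by 0.22 ± 0.05 on the log2 scale (edgeR adjusted p = 0.00129) and was higher with p65 2CS than with p65 WT by 0.28 ± 0.05 (edgeR adjusted p = 8.18e-05).

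The genes of arachidonate pools and reacylation, which load and unload the fatty acid in lipids, were mixed: 7 of 18 were higher and 4 lower with p65 WT, 0 and 4 with p65 2CS, and 2 and 8 in p65 2CS against p65 WT (13.4% and 17.9% of all genes). Without p65 WT replicate 6 the 8 became 5 and the 0 became 1, and without p65 WT replicate 4 or p65 2CS replicate 7 the 2 became 1. MGLL, the lipase that yields arachidonic acid from the endocannabinoid 2-arachidonoylglycerol, rose 1.85-fold from 4.79 ± 0.476 to 8.87 ± 1.88 CPM with p65 WT (edgeR adjusted p = 6.83e-06). It was lower with p65 2CS than with p65 WT by 0.51 on the log2 scale (edgeR adjusted p = 0.00521), but p65 WT replicate 6 decided this call (without it, 0.32 lower, edgeR adjusted p = 0.122). LPCAT1, a lysophospholipid acyltransferase, was 1.33-fold lower with p65 2CS than with p65 WT (edgeR adjusted p = 2.98e-13).

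In the remaining lists most counts turned on 1 library, and log2 folds of called genes were at most 0.60 in size. Of 8 other prostanoid synthases 0 were higher and 3 lower with p65 2CS against vector (12.1% and 11.4% of all genes), led by GSTM2, a glutathione transferase (10.8 to 7.87 CPM, edgeR adjusted p = 0.00359). With p65 WT against vector 0 of the 8 were called by edgeR, with 0 at an unadjusted p under 0.05, and 1 was called higher under DESeq2, without the low-count filter, or without vector replicate 3, p65 WT replicate 5 or p65 2CS replicate 7.

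Of 11 other phospholipases 0 were higher and 1 lower with p65 2CS against vector, PAFAH1B2, a catalytic subunit of a platelet-activating factor acetylhydrolase (90.2 to 79.0 CPM, edgeR adjusted p = 0.0015). With p65 WT against vector the 1 lower gene was PAFAH1B1, the regulatory subunit of that enzyme (log2 fold -0.11, edgeR adjusted p = 0.0408). Its call was lost under 8 of 15 alternatives, with adjusted p of 0.0718 to 0.148: RLE size factors, no low-count filter, DESeq2, only the groups compared, and with replicate 1 or 2 of vector, or 4 or 6 of p65 WT, left out. Of 8 prostaglandin transport and breakdown genes 1 was higher and 2 lower with p65 WT against vector. The higher was CBR3 (log2 fold 0.60, edgeR adjusted p = 0.0227). The lower were SLCO2A1 (-0.56, edgeR adjusted p = 0.0225) and ZADH2 (-0.30, edgeR adjusted p = 0.000191). These counts became 0 and 1 without vector replicate 2 or p65 WT replicate 6, and the 2 became 1 without p65 WT replicate 4. Across the alternatives adjusted p reached 0.272 for CBR3, 0.105 for SLCO2A1 and 0.00303 for ZADH2.

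**Figure D5:**
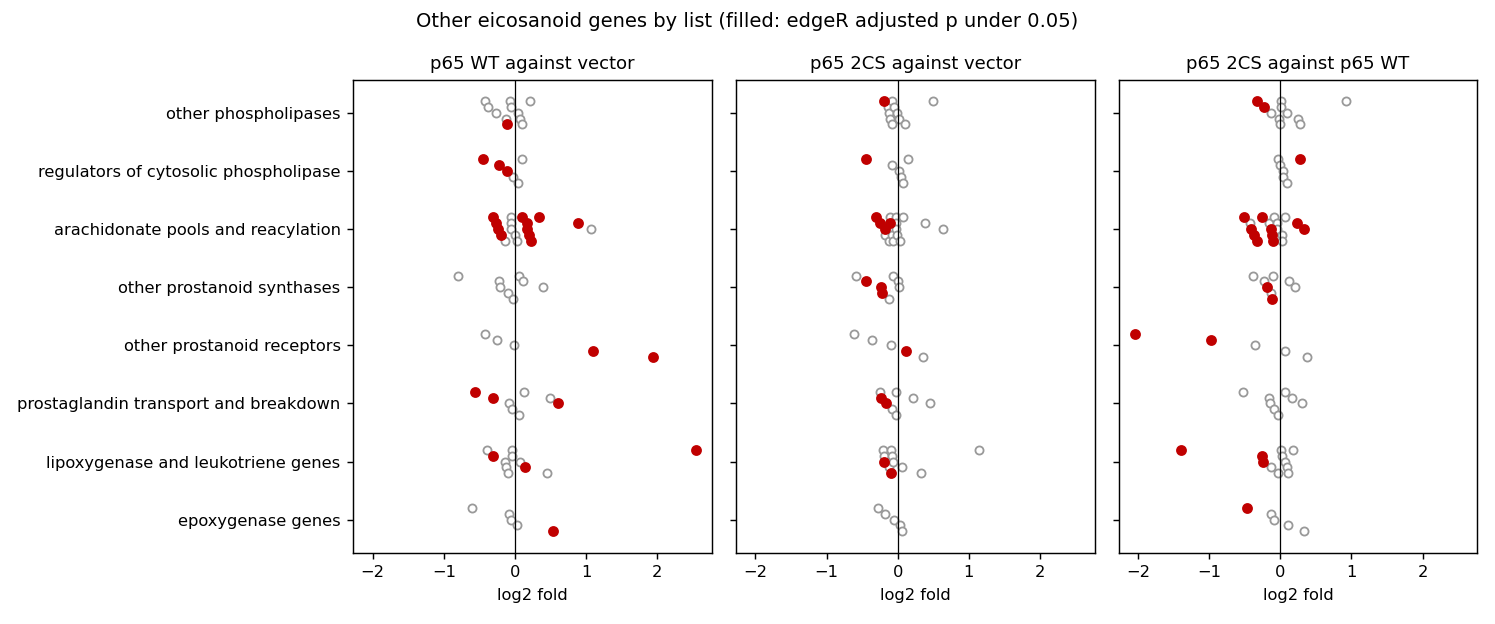
Log2 folds of the 72 tested genes of 8 other eicosanoid lists (rows) in the 3 comparisons (panels), each point a gene, filled red where the edgeR adjusted p is under 0.05 and open grey otherwise. In p65 WT against vector the points farthest to the right are ALOX12B (2.54), PTGIR (1.95) and PTGFRN (1.09) among called genes, and in p65 2CS against p65 WT these 3 lie to the left.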

How the data were processed

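RNA was sequenced from 9 libraries, 3 in each of 3 groups taken from the titles. Per the labels' protocols, poly-A RNA was fragmented and primed with random hexamers, for a library that may or may not have kept strand. The submitters' processing notes name HISAT2 2.0.5. How reads were counted, whether by strand and on which build is not given in the sources used here. Whole-number counts per gene were deposited, read as unnormalised because library totals differ. All 58735 positions equal those of GENCODE release 29 (GRCh38). Gene length, in bases, is another deposited column.

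Tests used edgeR 4.0.16 under R 4.3.3: its expression filter (18195 genes kept), TMM scaling and the quasi-likelihood F test in 1 fit of all libraries, with Benjamini-Hochberg adjustment over all genes tested and a threshold of 0.05. CPM used TMM-scaled totals. Intervals are 95% and unadjusted. Replicates within groups differed by more than sampling noise (chi-square per degree of freedom 1.91 to 2.64).

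The members and lists were chosen with earlier results of these data known. All 10 members were named. So were genes overlapping members, the 5 nearest in fold, and called genes of each list among the 3 with the largest folds in a comparison. Not every such overlapping or called gene was named. Alternatives were other scalings and filters, DESeq2 1.42.0, fits of only the groups compared, and each library left out.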

Additional observations from a re-analysis of the deposited data

How the results depend on the processing

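Across 15 alternatives the calls of PTGES in all 3 comparisons, of PTGER4 in the 2 with p65 WT and of PTGES3 in the 2 with p65 2CS stayed past the threshold in the same direction, with edgeR or DESeq2 adjusted p of at most 0.0413 and 0.0461 for PTGES3. Members called numbered 2 in p65 WT against vector and 3 in p65 2CS against p65 WT under every alternative, and 2 or 3 in p65 2CS against vector, the third being PLA2G4A without vector replicate 2. With libraries scaled by their totals alone, genes called in p65 WT against vector became 2561 higher and 3642 lower, from 2976 and 2268. The same scaling turned 2 uncalled values close to 0 in p65 WT against vector, PTGES2 to -0.035 and PTGES3 to -0.039 on the log2 scale. With each library left out in turn, uncalled log2 folds that crossed 0 ran from -0.044 to 0.065 for PTGES2, -0.0077 to 0.014 for PTGES3 and -0.18 to 0.036 for PTGER2 in p65 WT against vector, and from -0.23 to 0.18 for PTGS1 and -0.18 to 0.031 for PTGER2 between the forms. The cause was not tested. No paired analysis was possible because the groups share no replicate numbers. Read depth limits PTGS1, PTGS2 and PLA2G4B most, with 58 to 80, 113 to 148 and 16 to 26 reads per group.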

Other observations

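The surroundings of PLA2G4C on chromosome 19 were read for the same libraries. Of 18 counted genes within 200 kb, 8 had enough reads to be tested. With p65 2CS against vector 2 of these were higher and 1 lower, where 12.1% and 11.4% of all genes were. With p65 WT against vector 0 were higher and 1 lower (16.4% and 12.5% of all genes). In p65 2CS against p65 WT 1 was higher and 0 lower (13.4% and 17.9%). With 8 genes, these counts are not read as a property of the region. ZNF114, a zinc finger gene 159285 bp away, had means of 0.206, 0.398 and 0.766 CPM in the vector, p65 WT and p65 2CS groups, a log2 fold of 1.86 for p65 2CS against vector (edgeR adjusted p = 0.00667) from 79 reads in all. ZSWIM9, 59875 bp away, stood at 30.7, 29.3 and 37.9 CPM, with a log2 fold of 0.37 between the forms (edgeR adjusted p = 3.71e-05). LIG1, the DNA ligase gene 4628 bp away, was 0.09 lower on the log2 scale with p65 2CS than with vector (edgeR adjusted p = 0.0209). It was also lower with p65 WT than with vector (log2 fold -0.08, edgeR adjusted p = 0.0386), and was not called between the forms (edgeR adjusted p = 0.844). Around PTGS2 and PLA2G4A, the only other tested gene within 200 kb was the noncoding ERVMER61-1, at 0.694, 0.692 and 0.859 CPM, which was not called.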
